A study of Solanum lycopersicum with 12 samples.

Results

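Of 34688 tomato (Solanum lycopersicum) gene loci in the deposited count table, 237 (0.683%) carried mostly 21-nt small-RNA reads in cotyledon and in callus alike. These loci were selected on measured values. A locus was kept when it lay on chromosomes 1 to 12, had at least 10 reads of 18 to 26 nt in the pooled cotyledon libraries and at least 30 in the pooled callus libraries, and when 21-nt reads made up at least 50% of its reads in each pool. Of the 34110 loci on the 12 chromosomes, 8200 passed the read minimums, so that the 237 were 2.89% of the loci that could have qualified; 1912 of the same 8200 had mostly 24-nt reads. The 237 are called 21-nt loci here.

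The study sequenced small RNAs of cotyledons, the seed leaves, and of callus, the disorganised tissue that grew from them in culture. Cotyledons came from seedlings 6 days after sowing and were cultured on SIM medium; the 4 groups of 3 libraries each were day 0 cotyledon and callus of 12, 14 and 16 days. The labels name no transgene or mutant and do not state a cultivar, and the groups differed by tissue and time in culture together. Values count small-RNA reads that were assigned to a gene and say nothing of its mRNA level, and in bulk tissue fewer cells of a type and less RNA per cell cannot be told apart.

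Plants cut small RNAs of distinct lengths with Dicer-like enzymes. Lengths of 21 nt are typical of microRNAs and of secondary small interfering RNAs, which guide the cutting or repression of transcripts; 22-nt small RNAs can start the production of secondary small interfering RNAs, and 24-nt small interfering RNAs guide DNA methylation. No reference entry matched the locus identifiers and no sequence of the small RNAs was at hand, so that no gene name, gene role or small-RNA family is given, and a 21-nt locus is not thereby a microRNA gene.

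Gene reads numbered 456744 to 698312 per library, and values are given as reads of a locus per 1000000 gene reads of the library (CPM), without correction for locus length. The labels do not say whether the 3 libraries of a group came from separate cultures, so the spread that the p-values measure is that among the deposited libraries and may be technical. A principal component analysis over all loci set 3 callus libraries apart along its second component, which held 10.4% of the variance: day 12 replicate 3, day 14 replicate 1 and day 16 replicate 3. Cotyledon replicate 1 lay on the same side, at 17.3, with the other cotyledon libraries at -9.32 and -7.11. It was thus farther out than callus day 12 replicate 3, at 13.6, but was only left out singly. Counts of loci called between callus and cotyledon, and the results of some single loci, are given with and without the 3 callus libraries. The shares of reads and the length balances are not given without these 3 together. The labels name no batch.

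The selection used pooled 21-nt shares, which are described here without a test. Over the 237 loci the median 21-nt share was 69.4% in callus and 68.8% in cotyledon, with quartiles of 60.7% and 76.9% in callus and 60.8% and 79.2% in cotyledon. At 150 loci the share was at least 60% in both tissues, at 45 at least 75%, at 28 at least 80% and at 10 at least 90%. Most of the loci therefore lay at 60% or more in both tissues, but many did not keep to the limit in each library. In all 12 libraries 110 of the 237 had at least 50%, among them 77 of the 88 loci with at least 1000 reads. Those that went below it mostly had fewer reads. However, Solyc11g008540.3, the locus with the most reads, was below it in cotyledon replicate 1. The locus with the highest share was Solyc01g104150.4 on chromosome 1, with 99.1% of 30796 reads in callus and 98.6% of 19253 reads in cotyledon.

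Loci beside the limit were separated by little. Solyc02g050330.1 was kept with 50.0% of 26 cotyledon reads (exact 95% binomial interval 29.9 to 70.1%) and Solyc11g043070.3 was not, with 49.6% of 125 reads (40.5 to 58.7%). In callus Solyc06g074210.3 was kept with 50.0% of 44 reads (34.6 to 65.4%) and Solyc09g072890.2 was not, with 49.8% of 442 reads (45.0 to 54.5%). These intervals cover counting error only, since PCR copies of a molecule cannot be told from further molecules without molecular identifiers. A further 106 loci had 50% or more in callus alone and 227 in cotyledon alone; they are not among the 237.

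The reads that were not of 21 nt were mostly of 22 nt. Over all libraries 22 nt was the next most frequent length at 200 of the 237 loci, 20 nt at 16, 24 nt at 14, 23 nt at 5, and 18 and 19 nt at 1 each. Summed over the loci, 21-nt reads made up 81.7 to 88.5% of the reads in the callus libraries and 78.1 to 80.4% in the cotyledon libraries, with no overlap. For 22-nt reads the ranges were 7.34 to 10.4% in callus and 12.5 to 14.3% in cotyledon, again without overlap, and for 20-nt reads they were 1.61 to 3.24% in callus and 2.97 to 3.63% in cotyledon. The share of 24-nt reads overlapped between the tissues, at 0.932 to 1.74% in callus and 0.873 to 1.87% in cotyledon.

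**Figure D1:**
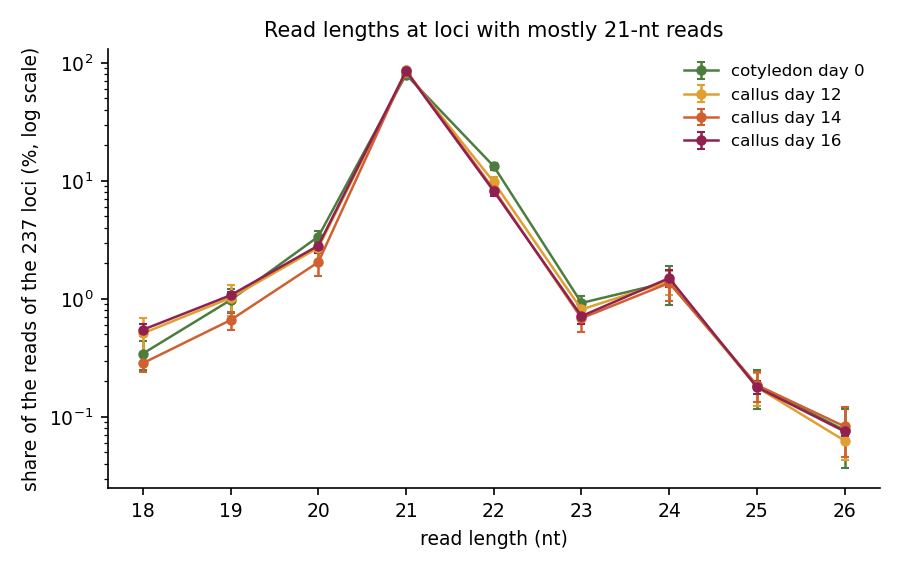
Share of the summed reads of the 237 loci (y axis, percent, log scale) at each read length in nt (x axis), as the mean and SD of 3 libraries for cotyledon day 0 and for callus days 12, 14 and 16. The peak is at 21 nt in every group, and the 22-nt share is lower in callus (7.34 to 10.4%) than in cotyledon (12.5 to 14.3%).

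Taken singly, the loci went both ways, and the tally differed between all loci and those with more reads. Over all loci the 21-nt share was higher in callus than in cotyledon at 117 and lower at 119, with a median difference of -0.047 points. Among the 113 loci with at least 100 cotyledon reads it was higher in callus at 71 and lower at 42, with a median difference of 1.96 points. This was not particular to them. Of the other 1343 loci that passed the read minimums with as many cotyledon reads, 861 had a higher 21-nt share in callus and 480 a lower one. Their median difference was 1.21 points. At the 113 loci the median share of 22-nt reads was 13.0% in callus and 17.8% in cotyledon, and it was lower in callus at 72 loci and higher at 41. At the other 1343 loci the 22-nt median was 6.60% in callus and 5.02% in cotyledon, and the share was higher in callus at 836. The 24-nt share at the 113 loci had medians of 2.40% in callus and 1.65% in cotyledon and was higher in callus at 73 loci. At the other 1343 it was lower in callus at 793, with medians of 50.0% in callus and 56.3% in cotyledon. These counts describe the loci and carry no test.

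Reads were spread unevenly over the 237 loci, which held 2435661 reads in all. Single loci held 43 to 447830 reads with a median of 437; 207 had at least 100 reads, 88 at least 1000, 30 at least 10000 and 6 at least 100000. Solyc11g008540.3 alone held 18.4% of these reads, the top 3 loci 37.1%, the top 10 66.5% and the top 20 82.9%. The 10 loci with the most reads took 61.0 to 78.6% of the reads of the 237 in callus libraries and 49.3 to 52.8% in cotyledon libraries. They were ranked on reads summed over the 12 libraries, 9 of them callus, which favours loci that are high in callus. In all, 225 loci had reads in each of the 12 libraries.

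The 237 loci took a larger part of all gene reads in callus. Their share was 24.5, 33.0 and 28.4% in the cotyledon libraries, 34.3, 36.5 and 46.1% on day 12, 38.3, 47.4 and 39.0% on day 14 and 39.8, 34.9 and 37.9% on day 16. Each of the 9 callus libraries was above each cotyledon library, with means of 39.4% ± 4.56 (SD, n = 9) in callus and 28.6% ± 4.26 (SD, n = 3) in cotyledon. Because the loci were chosen from these reads, no test is attached. Without the 3 loci with the most reads the order turned round, with a mean of 22.5% in callus (17.6 to 25.6%) and 25.9% in cotyledon (23.2 to 29.4%), and the ranges overlapped. Those 3 were Solyc11g008540.3 and the near-identical pair Solyc12g040470.2 and Solyc03g119020.2. The pair, described below, may share reads, and no share was computed with it counted once. The 3 loci were ranked on reads summed over all libraries, 9 of them callus, so that leaving them out in part favours a lower callus share. Relative to the library totals recovered from the deposited TPM values, the 237 loci made up 4.11 to 6.89% in callus and 3.61 to 6.07% in cotyledon, which overlapped as well.

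**Figure D2:**
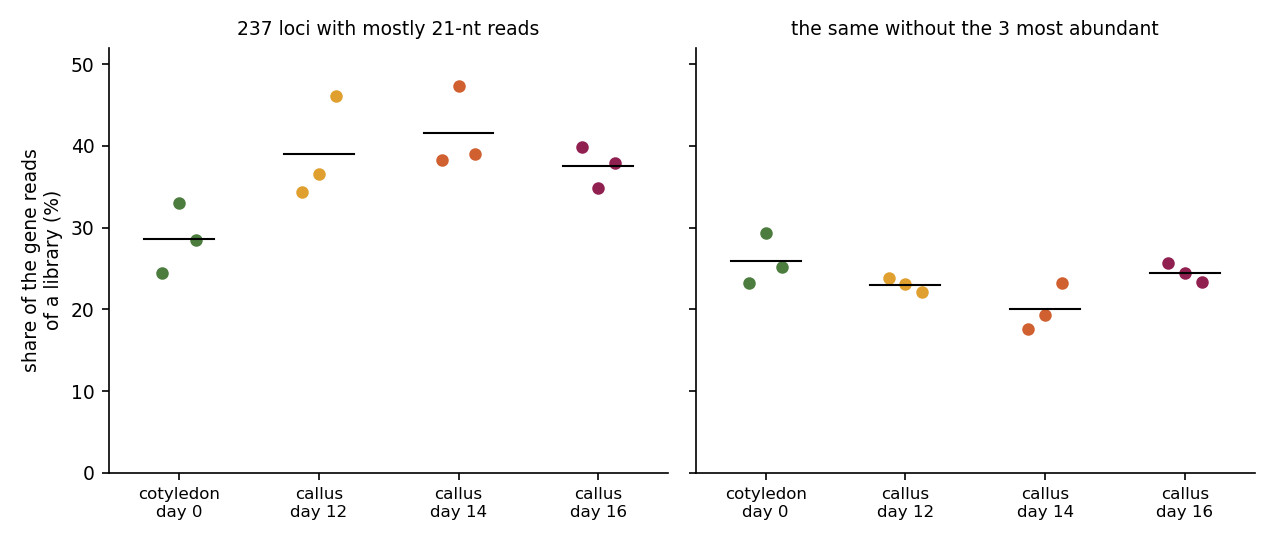
Share of a library's gene reads (y axis, percent) that fell on the 237 loci (left) and on the same loci without the 3 most abundant (right), in cotyledon day 0 and callus days 12, 14 and 16. Points are libraries and bars are group means of 3; on the left all callus points (34.3 to 47.4%) lie above the cotyledon points (24.5 to 33.0%), and on the right they overlap.

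Most 21-nt reads on genes came from these loci. They held 69.1 to 81.3% of all 21-nt gene reads in callus libraries and 68.3 to 69.8% in cotyledon libraries.

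Chromosome 11 carried the most 21-nt loci. It held 38 of the 237, or 6.38% of its 596 loci that passed the read minimums, and 928936 of the 2435661 reads. Chromosome 12 carried 25 (3.99% of its passing loci), while chromosome 9 carried 9 (1.36%) with 10681 reads in all; the other chromosomes carried 15 to 22. The share of mostly 24-nt loci among passing loci was 21.1% on chromosome 11, 27.5% on chromosome 12 and 27.0% on chromosome 9. Over all chromosomes it ran from 17.6% on chromosome 2 to 28.9% on chromosome 7. Of the 237 loci, 51 lay in 22 runs of loci that followed each other in the table with no other locus between them. The longest run had 4 loci, and 5 runs had 3. The sources used here do not give the genome build, so positions are named by identifier only.

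Near-identical read profiles marked 2 pairs of loci. Solyc12g040470.2 and Solyc03g119020.2 on chromosomes 12 and 3 had almost the same reads in each library. Solyc01g096330.2 and Solyc08g083150.1 on chromosomes 1 and 8 had 28113 and 28984 reads in all and were close in their 21-nt reads, which made up most of both, but not at 22 nt, where they had 90 and 411 reads in callus and 73 and 156 in cotyledon. The sources used here do not say how reads with several matching places were counted, so the members of a pair may share reads and are uncertain as separate loci. Counting each pair once leaves 235 loci.

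Levels of individual loci were then compared between callus and cotyledon. The levels themselves did not enter the selection beyond the read minimums, and the test was fitted over all 6729 loci that passed the expression filter. Of the 237 loci 216 passed that filter, and the 21 that did not had 43 to 85 reads. At day 12, 89 of the 216 (41.2%) were called by edgeR's quasi-likelihood test at an adjusted p under 0.05, against 33.5% of all tested loci: 48 rose and 41 fell, beside 14.4% and 19.2% of all tested loci. At day 14, 98 (45.4%) were called against a background of 31.3%, of which 46 rose and 52 fell (14% and 17.3% of all). At day 16, 80 (37.0%) were called against 30.9%, 41 rising and 39 falling (13.4% and 17.5% of all). Rises and falls were of roughly even number among the 21-nt loci, and the difference of their shares from those of all tested loci was not tested. The median log2 changes at the 216 loci were 0.04, -0.12 and 0.01 at days 12, 14 and 16, beside 0.08, 0.10 and 0.11 over all tested loci. The 3 comparisons share the 3 cotyledon libraries.

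**Figure D3:**
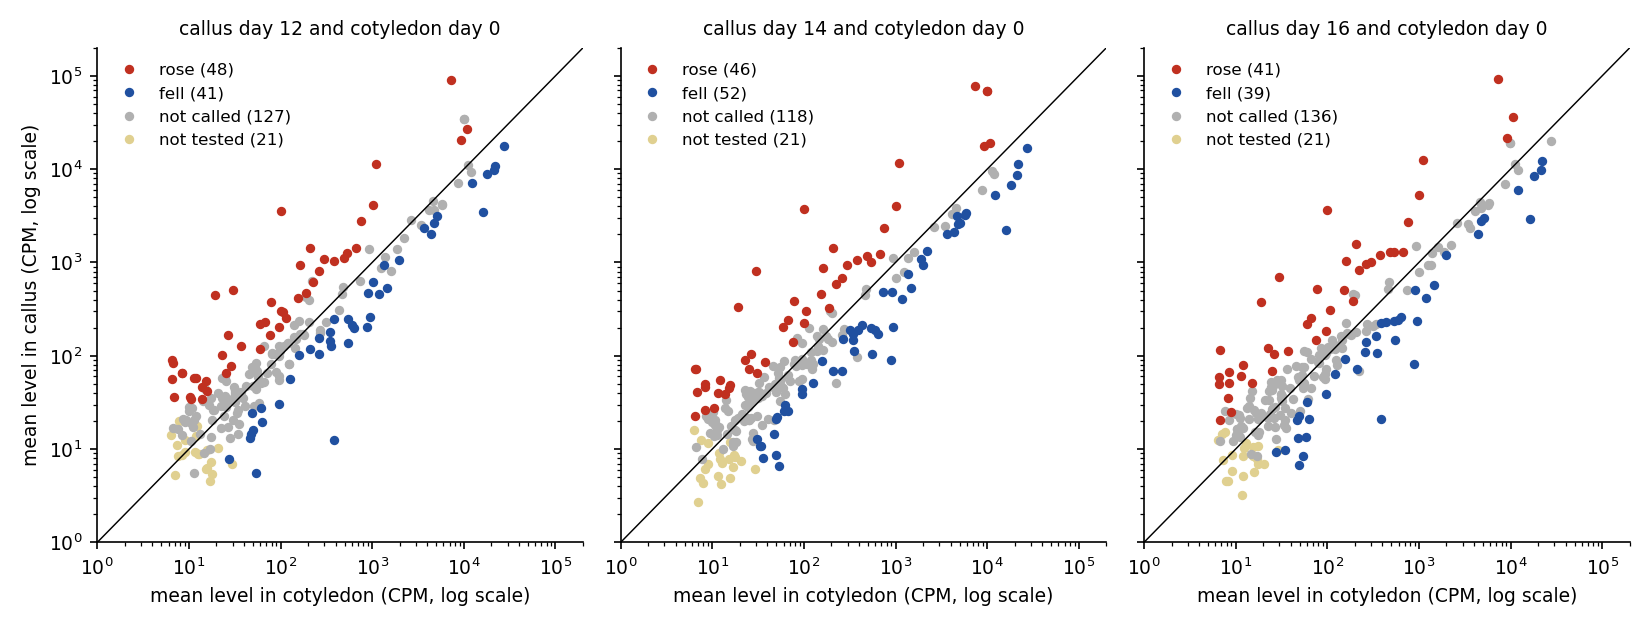
Mean level of each of the 237 loci in callus (y axis, CPM, log scale) against its mean level in cotyledon (x axis, CPM, log scale) at days 12, 14 and 16, each mean over 3 libraries; the line marks equal levels. Red points rose (48, 46 and 41 loci), blue points fell (41, 52 and 39), grey points were not called and yellow points were not tested.

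Counts of loci whose libraries did not overlap were likewise split between higher and lower. As shares of the 216 they lay near those of all tested loci, and the difference was not tested. At day 12 each callus library was higher than each cotyledon library at 62 of the 216 loci and lower at 47, against 24.3% and 21.7% of all tested loci. Day 14 had 52 higher and 57 lower (21.9% and 22.4% of all), and day 16 had 56 higher and 54 lower (24% and 21.3% of all). The mostly 24-nt loci differed in balance: 1612 were tested, of which 65 rose and 430 fell at day 12. Day 14 had 166 rises and 260 falls, and day 16 had 140 rises and 303 falls. The difference between the 2 kinds of loci was not tested.

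The split between rises and falls depended on the scaling. With the recovered library totals in place of TMM, 44 rose and 48 fell at day 12 (12.3% and 20.2% of all tested loci). Day 14 then had 33 rises and 76 falls (8.41% and 23.7% of all), and day 16 had 33 rises and 67 falls (7.71% and 23.2% of all). This scaling moved the median of all tested loci to 0.01 at day 12 and to -0.24 at days 14 and 16 on the log2 scale, and that of the 216 loci to -0.03, -0.47 and -0.35. Without the 3 callus libraries that stood apart, 224 of the 237 loci were tested and 49 rose and 39 fell at day 12 (12.9% and 17.5% of all tested loci). Day 14 had 47 rises and 34 falls (11.3% and 15.7% of all), and day 16 had 46 rises and 31 falls (11.1% and 15.9% of all). The number that fell was the less steady count: at day 12 it was 24 without cotyledon replicate 2 and 27 without callus day 12 replicate 1, and at day 14 it was 29 without either cotyledon replicate 2 or callus day 14 replicate 1.

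Rises and falls both occurred at each level of purity. Where the lower of the 2 pooled 21-nt shares was at least 75%, 42 of 45 loci were tested, with 12 rises and 12 falls at day 12, 14 rises and 15 falls at day 14, and 11 rises and 9 falls at day 16. The share called in this class was 57.1, 69.0 and 47.6% at days 12, 14 and 16, beside 33.5, 31.3 and 30.9% of all tested loci. Where the lower share lay between 60 and 75%, 96 of 105 were tested, with 26 rises and 20 falls at day 12, 25 of each at day 14, and 24 rises and 17 falls at day 16, or 47.9, 52.1 and 42.7% called. Where it lay between 50 and 60%, 78 of 87 were tested, with 10 rises and 9 falls at day 12, 7 rises and 12 falls at day 14, and 6 rises and 13 falls at day 16, or 24.4% called at each time. The classes differed in depth, as the 45 purest loci held 1278583 of the 2435661 reads, and its part in these shares was not tested. On chromosome 11, 36 of 38 were tested, with 10 rises and 9 falls at day 12, 10 rises and 14 falls at day 14, and 9 rises and 8 falls at day 16, or 52.8, 66.7 and 47.2% called beside the same 33.5, 31.3 and 30.9% of all tested loci. This was not particular to chromosome 11: on chromosome 12, 62.5, 75 and 50% of 24 tested were called. On chromosome 10, 13.3, 26.7 and 6.67% of 15 tested were called.

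The locus with the most reads was Solyc11g008540.3 on chromosome 11. It had 3765, 9288 and 8935 CPM in the cotyledon libraries of day 0, then 96542, 96934 and 77564 CPM in callus of day 12, 62957, 72006 and 99549 CPM at day 14 and 121234, 85141 and 72477 CPM at day 16. All 9 callus libraries lay far above the 3 cotyledon libraries. The log2 change was 3.47 (SE 0.37, adjusted p = 1.93e-06) at day 12, 3.35 (SE 0.37, adjusted p = 3.16e-06) at day 14 and 3.58 (SE 0.38, adjusted p = 1.54e-06) at day 16 (edgeR), folds of 11.1, 10.2 and 11.9. Its length profile differed between the tissues as well: 21-nt reads made up 82.9% of its reads in callus and 50.6% in cotyledon, and 22-nt reads 9.07% in callus and 40.9% in cotyledon. By library the 21-nt share was 46.0, 52.5 and 50.6% in cotyledon, 82.3, 80.8 and 82.7% on day 12, 81.9, 84.4 and 82.9% on day 14 and 84.6, 83.5 and 82.8% on day 16. This locus thus entered the selection just above the limit in cotyledon.

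The near-identical pair Solyc12g040470.2 and Solyc03g119020.2 came next and was uneven among the callus libraries. Solyc12g040470.2 had 4592, 13549 and 11836 CPM in the cotyledon libraries of day 0, then 4134, 18977 and 81321 CPM in callus of day 12, 71808, 104608 and 28701 CPM at day 14 and 10305, 9652 and 36679.9 CPM at day 16. At day 12 the callus libraries ranged from below the lowest cotyledon library to far above the highest, at day 14 all 3 were above, and at day 16 the groups overlapped. Log2 changes relative to cotyledon were 1.81 (SE 0.80, adjusted p = 0.0874) at day 12, 2.74 (SE 0.82, adjusted p = 0.0169) at day 14 and 0.77 (SE 0.78, adjusted p = 0.480) at day 16 (edgeR). The day 14 call was lost without callus day 14 replicate 2 (adjusted p = 0.0592) and cotyledon replicate 1 (adjusted p = 0.0692). With only these groups in the fit day 12 was called too, at 1.96 (adjusted p = 0.0247). Without the filter on low counts it was called at day 12, at 1.85 (adjusted p = 9.63e-14), and at day 16, at 0.78 (adjusted p = 0.00978). The log2 changes hardly moved from those of the main fit, and the libraries overlapped at both times. Those calls thus came from a changed estimate of the spread and do not measure how far the libraries were separated. At day 12 the log2 change was 2.41 (adjusted p = 0.0126) without callus day 12 replicate 1, which called it, and 0.02 without replicate 3. The high libraries of the pair at each time were those that stood apart on the second component, with replicate 2 of day 14 as a further high library. Its 21-nt share hardly moved, at 94.1% in callus and 94.4% in cotyledon.

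Other loci with many reads changed less. Solyc11g009010.2 had 9891, 11254 and 11092 CPM in the cotyledon libraries of day 0, then 25256, 29329.7 and 25628 CPM in callus of day 12, 18703, 19160.5 and 19943 CPM at day 14 and 41048, 35657 and 32298 CPM at day 16. The callus libraries were above the cotyledon libraries at each time, with little spread within groups. By day, the log2 change was 1.19 (SE 0.24, adjusted p = 0.00100) at day 12, 0.80 (SE 0.24, adjusted p = 0.0157) at day 14 and 1.67 (SE 0.24, adjusted p = 4.87e-05) at day 16 (edgeR). The day 14 call was lost without callus day 14 replicate 2 (adjusted p = 0.0579), cotyledon replicate 1 (adjusted p = 0.0591) and cotyledon replicate 3 (adjusted p = 0.0535), and with library totals as the scale its log2 change was 0.44 (adjusted p = 0.138). Its 21-nt share was 92.1% in callus and 91.0% in cotyledon.

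Solyc06g048960.5 on chromosome 6 was also higher in callus. It had 6682, 11281 and 9736 CPM in the cotyledon libraries of day 0, then 20781, 22786 and 18641 CPM in callus of day 12, 14426, 15893 and 23372 CPM at day 14 and 27222, 20993 and 16923 CPM at day 16. No callus library reached down to a cotyledon library. The log2 change was 1.02 (SE 0.29, adjusted p = 0.0122) at day 12, 0.90 (SE 0.29, adjusted p = 0.0262) at day 14 and 1.15 (SE 0.29, adjusted p = 0.00636) at day 16 (edgeR). The day 12 call was lost without cotyledon replicate 1 (adjusted p = 0.0563), and the day 14 call without callus day 14 replicate 3 (adjusted p = 0.112), cotyledon replicate 1 (adjusted p = 0.112) and cotyledon replicate 3 (adjusted p = 0.0679). With library totals the log2 change was 0.53 (adjusted p = 0.169) at day 14 and 0.75 (adjusted p = 0.0542) at day 16, so that neither was called. Its 21-nt share was 84.2% in callus and 65.6% in cotyledon, and its 22-nt share 10.1% in callus and 28.0% in cotyledon.

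In the opposite direction, Solyc06g054600.2 had 23476, 29157 and 29303 CPM in the cotyledon libraries of day 0, then 17862, 14158 and 21456 CPM in callus of day 12, 14741, 20045 and 15743 CPM at day 14 and 17242, 24498 and 18093 CPM at day 16. Callus was below cotyledon without overlap at days 12 and 14, and the groups overlapped at day 16. Log2 changes relative to cotyledon were -0.73 (SE 0.27, adjusted p = 0.0460) at day 12, -0.73 (SE 0.27, adjusted p = 0.0468) at day 14 and -0.56 (SE 0.27, adjusted p = 0.123) at day 16 (edgeR). Both calls lay near the threshold. That of day 12 was lost without callus day 12 replicate 1 (adjusted p = 0.194), callus day 12 replicate 2 (adjusted p = 0.195), cotyledon replicate 2 (adjusted p = 0.165) and cotyledon replicate 3 (adjusted p = 0.141), and with the replicate number as a block (adjusted p = 0.0528) or with only these groups in the fit (adjusted p = 0.130). That of day 14 was lost without callus day 14 replicate 1 (adjusted p = 0.161), callus day 14 replicate 3 (adjusted p = 0.136), cotyledon replicate 2 (adjusted p = 0.152) and cotyledon replicate 3 (adjusted p = 0.124), and without the 3 callus libraries that stood apart (adjusted p = 0.110), on 21-nt reads alone (adjusted p = 0.0820) and with only these groups in the fit (adjusted p = 0.167). With library totals the fall at day 16 was called, at -0.93 (adjusted p = 0.0144).

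**Figure D4:**
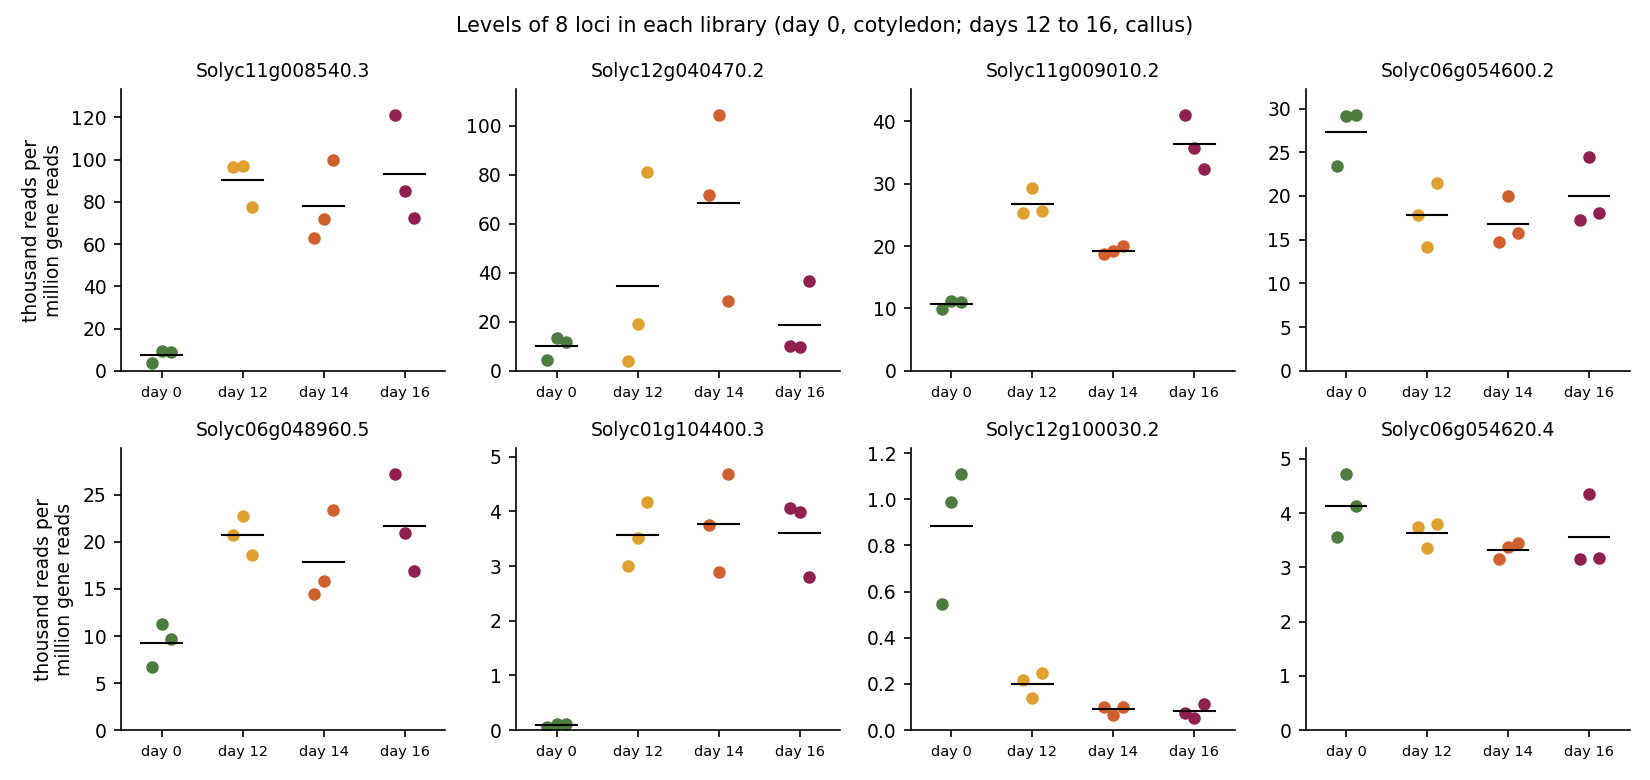
Level of 8 of the loci (y axis, CPM in units of 1000, from 0, own scale in each panel) in the 3 libraries of cotyledon day 0 and of callus days 12, 14 and 16; points are libraries and bars are group means. Solyc11g008540.3 and Solyc01g104400.3 are high in every callus library, Solyc12g100030.2 is low in every callus library, and Solyc12g040470.2 varies widely within the callus groups.

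The 30 loci with at least 10000 reads went both ways. At day 12, 7 rose, 10 fell and 13 were not called. Day 14 had 9 rises, 14 falls and 7 without a call, and day 16 had 7 rises, 8 falls and 15 without a call. The shares called were 56.7, 76.7 and 50.0%, beside 33.5, 31.3 and 30.9% of all tested loci, most of which had fewer reads; the part of depth was not tested. A pair of further examples was chosen after their values were seen. Solyc01g058100.2 averaged 1099 ± 489.8 CPM in cotyledon, 11490.0 ± 1145 CPM at day 12, 11729.8 ± 1904 CPM at day 14 and 12640.1 ± 3055 CPM at day 16 (SD, n = 3 each), with log2 changes of 3.25, 3.35 and 3.40 (edgeR adjusted p = 1.50e-06, 1.37e-06 and 9.89e-07). Solyc01g009565.1 averaged 16184 ± 3364 CPM in cotyledon, 3449 ± 619.6 CPM at day 12, 2239 ± 560.3 CPM at day 14 and 2942 ± 372 CPM at day 16 (SD, n = 3 each), with log2 changes of -2.38, -2.90 and -2.55 (edgeR adjusted p = 4.88e-06, 7.94e-07 and 2.62e-06). In neither did a callus library overlap a cotyledon library.

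The largest rises belonged to loci that were sparse in cotyledon. Solyc01g104400.3 had 63.8, 119 and 118 CPM in the cotyledon libraries of day 0, then 2997, 3517 and 4168 CPM in callus of day 12, 3748, 2883 and 4684 CPM at day 14 and 4058, 3978 and 2791 CPM at day 16. The lowest callus library exceeded the highest cotyledon library by more than an order of magnitude. By day, the log2 change was 5.04 (SE 0.36, adjusted p = 3.28e-08) at day 12, 5.17 (SE 0.36, adjusted p = 2.38e-08) at day 14 and 5.07 (SE 0.36, adjusted p = 2.93e-08) at day 16 (edgeR), folds of 32.9, 35.9 and 33.7. Its 21-nt share was 77.9% in callus and 89.1% in cotyledon, the cotyledon value from 156 reads.

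Solyc01g014840.3 had 12.8, 33.7 and 10.9 CPM in the cotyledon libraries of day 0, then 585, 449 and 305 CPM in callus of day 12, 257, 302 and 430.4 CPM at day 14 and 408, 396 and 327 CPM at day 16. Solyc12g011350.3 had 21.9, 35.5 and 32.8 CPM in the cotyledon libraries of day 0, then 444, 662 and 398 CPM in callus of day 12, 598, 524 and 1295 CPM at day 14 and 819.7, 509 and 746 CPM at day 16. All callus libraries of both loci lay above the cotyledon libraries, which had 7, 19 and 5 reads and 12, 20 and 15 reads. For Solyc01g014840.3 the log2 changes were 4.32, 4.01 and 4.16 with SE of 0.40, 0.39 and 0.40 (edgeR adjusted p = 3.22e-07, 7.94e-07 and 5.52e-07 at days 12, 14 and 16). For Solyc12g011350.3 they were 3.91, 4.67 and 4.43 with SE of 0.40, 0.41 and 0.41 (edgeR adjusted p = 1.17e-06, 2.48e-07 and 4.01e-07). Solyc12g011350.3 was among the loci whose next most frequent length was 20 nt, with 7.92% of its callus reads, while 22-nt reads made up 2.25%.

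Of the largest falls, that of Solyc12g100030.2 on chromosome 12 rested on the most reads. It had 548, 988 and 1110.0 CPM in the cotyledon libraries of day 0, then 217, 138 and 249 CPM in callus of day 12, 102, 67.3 and 102 CPM at day 14 and 75.7, 53.8 and 115 CPM at day 16. No callus library came near a cotyledon library. The log2 change was -2.25 (SE 0.35, adjusted p = 9.43e-05) at day 12, -3.36 (SE 0.37, adjusted p = 2.86e-06) at day 14 and -3.54 (SE 0.37, adjusted p = 1.56e-06) at day 16 (edgeR). Its 21-nt share was 84.5% in callus and 86.5% in cotyledon. It closed a run of 3 neighbours, of which Solyc12g100010.1 fell too, with log2 changes of -1.78, -1.93 and -1.42, and Solyc12g100020.1 was too sparse to test; these neighbours were singled out after their values were seen.

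Solyc02g077790.1 had 208, 465 and 473 CPM in the cotyledon libraries of day 0, then 11.3, 7.60 and 18.7 CPM in callus of day 12, 12.5, 269 and 7.86 CPM at day 14 and 0, 26.9 and 35.4 CPM at day 16. The cotyledon libraries were above all callus libraries except replicate 2 of day 14, which lay within their range. Log2 changes relative to cotyledon were -5.04 (SE 1.05, adjusted p = 0.00132) at day 12, -1.90 (SE 0.85, adjusted p = 0.0961) at day 14 and -4.36 (SE 1.00, adjusted p = 0.00289) at day 16 (edgeR). Without callus day 14 replicate 2 the day 14 log2 change was -5.30 (adjusted p = 7.87e-05), with the replicate number as a block it was -2.58 (adjusted p = 0.0248), and without the filter on low counts it was -1.90 (adjusted p = 1.77e-06). In that last fit the log2 change was that of the main fit and only the estimated spread differed, although the libraries overlapped. The day 16 library listed at 0 lay below a floor of 3 reads, which is 5.54 CPM there, and DESeq2 gave no adjusted p for this locus.

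Solyc08g075630.3 had 30, 31 and 24 reads in the cotyledon libraries, then 3, 5 and 2 reads on day 12, 2, 4 and 5 reads on day 14 and 5, 5 and 3 reads on day 16. Every callus library was lower, though the callus counts were close to the floor of 3. By day, the log2 change was -3.36 (SE 0.47, adjusted p = 3.18e-05) at day 12, -3.04 (SE 0.46, adjusted p = 8.26e-05) at day 14 and -2.75 (SE 0.45, adjusted p = 0.000177) at day 16 (edgeR).

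The purest locus, Solyc01g104150.4, fell moderately. It had 9051, 15822 and 11757 CPM in the cotyledon libraries of day 0, then 7761, 7492 and 6319 CPM in callus of day 12, 4036, 5715 and 6132 CPM at day 14 and 4936, 4053 and 8769 CPM at day 16. No callus library was above the lowest cotyledon library. The log2 change was -0.92 (SE 0.30, adjusted p = 0.0269) at day 12, -1.26 (SE 0.31, adjusted p = 0.00462) at day 14 and -1.16 (SE 0.31, adjusted p = 0.00755) at day 16 (edgeR). The day 12 call was lost without callus day 12 replicate 1 (adjusted p = 0.0969), callus day 12 replicate 2 (adjusted p = 0.0656), callus day 12 replicate 3 (adjusted p = 0.0561), cotyledon replicate 2 (adjusted p = 0.173) and cotyledon replicate 3 (adjusted p = 0.0593), and the day 16 call without callus day 16 replicate 2 (adjusted p = 0.0519) and cotyledon replicate 2 (adjusted p = 0.0523). Almost no 22-nt reads were found there, 0.00974% in callus and 0.0208% in cotyledon, and 24-nt reads were listed at 0 in both.

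A few loci varied little across the libraries. The smallest ranges belonged to Solyc06g054620.4 and Solyc06g005630.3, both on chromosome 6. Solyc06g054620.4 had 3553, 4726 and 4136 CPM in the cotyledon libraries of day 0, then 3750.2, 3365 and 3794 CPM in callus of day 12, 3148, 3382 and 3453 CPM at day 14 and 3164, 4357 and 3182 CPM at day 16. Solyc06g005630.3 had 363, 500.4 and 529.8 CPM in the cotyledon libraries of day 0, then 544, 419.7 and 415 CPM in callus of day 12, 448, 407 and 479.6 CPM at day 14 and 495, 515 and 560.3 CPM at day 16. The groups overlapped at days 12 and 16 for both loci and at day 14 for Solyc06g005630.3, while all 3 day 14 libraries of Solyc06g054620.4 lay below its lowest cotyledon library. Neither was called at any time by edgeR (lowest adjusted p = 0.248 for Solyc06g054620.4 and 0.610 for Solyc06g005630.3), which does not show that they were equal. With library totals as the scale Solyc06g054620.4 fell, with log2 changes of -0.72 (adjusted p = 0.0256) at day 14 and -0.69 (adjusted p = 0.0314) at day 16.

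The run of 4 neighbouring loci on chromosome 11 held loci with and without calls. Solyc11g071400.2 fell, with log2 changes of -1.49 (SE 0.37, adjusted p = 0.00533) at day 12, -2.00 (SE 0.39, adjusted p = 0.000759) at day 14 and -1.33 (SE 0.37, adjusted p = 0.0114) at day 16 by edgeR, the last lost without callus day 16 replicate 3 (adjusted p = 0.0542). Its libraries had 206, 273 and 304 CPM in cotyledon, 115, 119 and 76.6 CPM at day 12, 31.1, 48.7 and 124 CPM at day 14 and 116, 133 and 83.3 CPM at day 16. Solyc11g071390.1 fell at day 14, with a log2 change of -1.44 (SE 0.37, adjusted p = 0.00596) by edgeR, and had log2 changes of -0.49 and -0.67 at days 12 and 16 that were not called. With library totals its change at day 16 was called, at -1.03 (adjusted p = 0.0347). Solyc11g071430.1 had log2 changes of -0.04, -0.19 and -0.08, none of them called. Solyc11g071420.4 had 0.44, 0.23 and 0.58, also not called, but on 21-nt reads alone it was called at all 3 times, with 0.55 (adjusted p = 0.0106), 0.57 (adjusted p = 0.00889) and 0.74 (adjusted p = 0.00146), and at day 16 it was called without cotyledon replicate 2, at 0.79 (adjusted p = 0.0445), and with only these groups in the fit, at 0.71 (adjusted p = 0.0329). Whether neighbours differed from each other was not tested.

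The authors' deposited table of their own DESeq2 comparisons on 21-nt reads listed all 237 loci. By its adjusted p under 0.05, 38 rose and 28 fell of the 235 with an adjusted p at day 12 (5.07% and 5.52% of all loci with an adjusted p in that table). The authors' deposited table gave 36 rises and 31 falls of 232 at day 14 (5.32% and 6.88% of all), and 34 rises and 27 falls of 234 at day 16 (5.14% and 5.81% of all). Most loci of that table have mostly reads of other lengths, so a higher share of calls on 21-nt reads was built into the selection, and nothing is read from it. In the authors' deposited table Solyc11g008540.3 had 21-nt log2 fold changes of 4.34, 4.30 and 4.41 at days 12, 14 and 16, and Solyc12g040470.2 had 1.91, 3.02 and 0.96 with adjusted p of 0.292, 2.22e-05 and 0.540. Some calls given above were not made by the authors' DESeq2 test. Its adjusted p was 0.0505 and 0.0829 for Solyc08g075630.3 at days 14 and 16, and 0.0912 for Solyc11g071400.2 at day 16. At day 14 it was 0.224 for Solyc11g071390.1 and 0.0734 for Solyc11g071420.4.

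Between callus times no 21-nt locus was called. The count was 0 of 216 for day 14 against day 12, day 16 against day 12 and day 16 against day 14 by edgeR, with 11, 10 and 13 at an unadjusted p under 0.05, and 0, 1 and 0 by DESeq2. Over all tested loci the shares called were 0%, 0.0594% (4 loci) and 0%. This does not show that levels were equal between callus times, as the pair with Solyc12g040470.2 was uneven within each of them.

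The balance of 21-nt reads against others moved at a part of the loci. Among the 44 loci with at least 1000 cotyledon reads, the 21-nt share was more than 10 points higher in callus at 11 and more than 10 points lower at 2, and it was within 5 points at 23. Of the 11 that were higher, 7 lay on chromosome 11, as did 15 of the 44. Solyc11g008540.3 led with 32.3 points, followed by Solyc11g008520.3 on the same chromosome with 24.3 points (78.4% in callus and 54.1% in cotyledon) and Solyc06g048960.5 with 18.7 points. In the other direction Solyc06g053785.1 had 60.7% in callus and 91.3% in cotyledon. These shares entered the selection and are given without a test.

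Lengths other than 21 nt were compared within loci, which the 21-nt rule did not use directly. The test set 24-nt against 22-nt reads of the same locus in the same library, so that scaling between libraries cancels, and compared all callus with cotyledon. Of the 237 loci, 43 had enough 24-nt and 22-nt reads, among 544 loci tested. The balance was called at 15 of the 43 (34.9%), against 17.3% of the 544: 13 moved towards 24 nt and 2 towards 22 nt, where 7.54% and 9.74% of the 544 did. At 38 of the 43 the pooled ratio of 24-nt to 22-nt reads was higher in callus than in cotyledon and at 5 it was lower; the median log2 change was 0.79, beside -0.08 over the 544. A further 10 loci made 25 at an unadjusted p under 0.05. Of the 15 calls, 6 were also made without each library in turn. The count of calls was 8 without cotyledon replicate 2, of which 6 were towards 24 nt, and that towards 24 nt was 8 without cotyledon replicate 3. Without the filter on low counts, which raised the loci tested to 21499, the count was 6 of 231 (2.60%), against 0.242% of the 21499, and 5 of the 15 calls were among them.

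**Figure D5:**
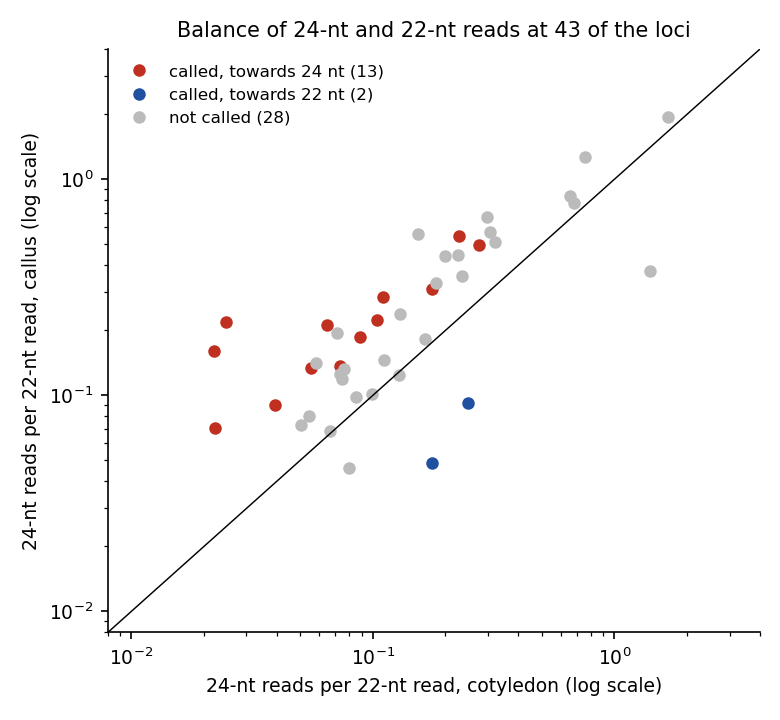
Number of 24-nt reads per 22-nt read in pooled callus libraries (y axis, log scale) and in pooled cotyledon libraries (x axis, log scale) at the 43 loci whose counts allowed the test; the line marks equal ratios. Of the 43 points 38 lie above the line; 13 called towards 24 nt are red and 2 called towards 22 nt are blue.

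Solyc11g008540.3 had 24-nt to 22-nt ratios of 0.0440, 0.0188 and 0.0136 in the cotyledon libraries, 0.158, 0.132 and 0.141 on day 12, 0.184, 0.166 and 0.188 on day 14 and 0.208, 0.153 and 0.135 on day 16. All callus ratios were higher. The log2 change of the balance was 2.82 (SE 0.23, adjusted p = 3.70e-12) by edgeR, from 6388 and 39586 reads of 24 and 22 nt in callus and 102 and 4654 in cotyledon. Solyc11g020100.4 had the largest change, 2.87 (SE 0.74, adjusted p = 0.00522) by edgeR, but from 99 and 452 reads of the 2 lengths in callus and 2 and 81 in cotyledon, and its call was lost without cotyledon replicate 2 (adjusted p = 0.0750). Towards 22 nt, Solyc11g064980.1 had a log2 change of -1.79 (SE 0.35, adjusted p = 0.000169) by edgeR, from 104 and 2146 reads in callus and 90 and 510 in cotyledon. Solyc11g071420.4 had -1.51 (SE 0.42, adjusted p = 0.00921) by edgeR and was lost without cotyledon replicate 1 (adjusted p = 0.120). These 4 loci lay on chromosome 11, as did 8 of the 15 called and 19 of the 43 tested. Without the filter on low counts Solyc11g020100.4 and Solyc11g071420.4 were not called.

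The balance of 22-nt against 20-nt reads, added after the data were seen, moved at fewer loci. It was called at 9 of 59 testable 21-nt loci (15.3%), against 11.3% of the 310 loci tested, with 5 towards 22 nt and 4 towards 20 nt (8.71% and 2.58% of the 310). The median log2 change was 0.02, beside 0.28 over the 310, and 16 had an unadjusted p under 0.05. Solyc11g008540.3 moved towards 20 nt, with a log2 change of -2.43 (SE 0.19, adjusted p = 3.32e-35) by edgeR, as did Solyc11g008520.3 with -1.57 (SE 0.30, adjusted p = 4.66e-06). Towards 22 nt, Solyc06g053785.1 had 2.31 (SE 0.38, adjusted p = 1.18e-07) and Solyc06g005630.3 1.72 (SE 0.43, adjusted p = 0.00124) by edgeR, and the call of Solyc06g005630.3 was lost without cotyledon replicate 2 (adjusted p = 0.299) or without the filter on low counts. At Solyc11g008540.3 both balances thus moved away from 22 nt in callus, the direction in which its 22-nt share differed. Both balances and that share rest on the same 22-nt reads, so they are not independent observations.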

How the data were processed

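The authors sequenced small RNAs in 12 libraries, 3 each of cotyledon (day 0) and of callus at days 12, 14 and 16, grouped by sample title. The authors deposited raw counts per gene locus and read length (18 to 26 nt), per the file headers. They also deposited TPM values by length and strand, and a table of their DESeq2 comparisons with log2 fold changes and p-values per length, per the file headers. The submitters' processing notes name fastp, Bowtie and DESeq2. Versions, genome build and the treatment of reads with several matching places are not given in the sources used here. Reads split or repeated over similar loci would give such loci similar values.

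Counts were summed over lengths and tested with edgeR 4.0.16 (TMM, filterByExpr, quasi-likelihood F test, 1 term per group over all 12 libraries, Benjamini-Hochberg adjustment over 6729 loci, threshold 0.05; biological coefficient of variation 0.333) in R 4.3.3. SE is the log2 change over the square root of F. The length balances used a term per library and length-by-group terms. DESeq2 1.42.0 and limma 3.58.1 were alternatives, and other steps used Python 3.11.15, numpy 2.4.6, pandas 2.3.3 and scipy 1.17.1. The scripts were tested on simulated data. Library totals (2769024 to 4799134) were recovered from the deposited TPM values, of which 216 of 216 came out as whole reads within 0.05. Depth limits the sparse loci: 3 reads correspond to 4.30 to 6.57 CPM. The count unit by read length was not foreseen in the planned design. Near-identical loci had at least 100 reads and a Bray-Curtis distance of at most 0.05.

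The loci, comparisons and naming rule were chosen with earlier results of these data known. Named were the 6 loci with the highest mean CPM, the 2 largest rises and falls of each comparison among called loci without overlap and with a mean of at least 10 CPM, the loci beside the limit, the highest 21-nt share, the smallest ranges, the longest run and the largest balance changes; others are marked as chosen after their values were seen. Alternatives were other scalings, no filter, DESeq2, 21-nt reads alone, a replicate block, only the groups compared, and leaving out libraries. No column of other samples was present (0).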

Additional observations from a re-analysis of the deposited data

How the results depend on the processing

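With each library of the compared groups left out in turn, the 21-nt loci called at day 12 numbered 73 to 85, against 89 with all libraries. At day 14 they numbered 73 to 88, against 98, and at day 16 65 to 80, against 80. The 24-nt against 22-nt balance gave 8 to 16 calls over omissions of each of the 12 libraries. Between callus times, omissions gave 0 calls in each comparison. Without a filter on low counts 4, 4 and 3 loci were called for day 14 against day 12, day 16 against day 12 and day 16 against day 14, and 6 for the balance; DESeq2 called 1 for day 16 against day 12, and 2 were called for day 16 against day 14 without the 3 callus libraries that stood apart. The share of gene reads held by the 237 loci was 1.37 times as high in callus (1.28 to 1.49 over omissions), 0.869 without the 3 most abundant loci and 1.07 on library totals. The 21-nt share of their reads was 5.44 points higher in callus (4.79 to 5.93 over omissions), but 0.565 points as the median over loci. The day 16 log2 change of the near-identical pair, 0.78 at Solyc03g119020.2 and 0.77 at Solyc12g040470.2, turned to -0.0647 and -0.0659 without the 3 libraries that stood apart. Over omissions of 1 library it ran from -0.0304 to 1.13 at Solyc03g119020.2 and from -0.0316 to 1.12 at Solyc12g040470.2, lowest without replicate 3 of day 16. The labels do not say whether the replicate numbers pair the libraries. Of 18 same-numbered pairs, 4 had deviations correlated above 0.1 (-0.263 to 0.195), which cannot settle it with 3 libraries per group. With the replicate number as a block 84, 93 and 76 loci were called. Depth limits the loci under 100 reads, of which 21 could not be tested. A locus that shares reads with others cannot be resolved here, and tissue and time in culture cannot be told apart.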
